A study of Mus musculus with 12 samples.

Results

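Transcripts of 10 genes, Megf6, Gas6, Gpnmb, Rasl11a, Ephb6, Lmcd1, Aqp5, Stat6, Ripk3 and Csf2ra, were far less abundant in mouse embryonic fibroblasts (MEFs) lacking the ubiquitin ligase CHIP than in wild-type MEFs. They were chosen by their fall in FPKM in these same libraries, among the largest falls in CHIP-KO against wild type with or without heat, and make up 10 of 54532 genes measured by RNA-seq. The genotype differences that chose them are given as a description, without a test. CHIP, encoded by Stub1, tags client proteins of heat shock chaperones for degradation, and MEFs are connective tissue cells cultured from embryos. The 12 libraries fall into 4 groups of 3: untreated WT, WT after heat shock (1 hour at 43 °C), untreated CHIP-KO, and CHIP-KO after the same heat shock. Strain, embryo age and the number of clones are not in the labels, so genotype and cell line cannot be told apart. Nothing in the labels ties replicates to separate cultures; p-values then reflect the scatter among these libraries alone, and that may be technical.

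The genes belong to different pathways, and several act in signalling between cells. GAS6 is a secreted ligand of the receptor kinases TYRO3, AXL and MERTK, which help cells survive and clear dying neighbours. The alpha chain of the receptor for the cytokine GM-CSF is encoded by Csf2ra, and EPHB6 is an ephrin receptor with an inactive kinase domain. RIPK3 is the kinase that drives necroptosis, a regulated and inflammatory form of cell death, and STAT6 is the transcription factor that carries the signal of interleukins 4 and 13 to the nucleus. GPNMB is a membrane glycoprotein of melanosomes and lysosome-rich cells, AQP5 a water channel of secretory glands, and MEGF6 a protein with many EGF-like domains. LMCD1 is a LIM domain protein that restrains GATA6, and RASL11A a small GTPase-like protein.

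Promoter sequences of 3 genes show how differently these genes are built: Aqp5 with the most CpG dinucleotides of the 10, Stat6 with the fewest, and Gas6, whose CHIP-KO level was lowest relative to wild type. The sequences are from RefSeq (GRCm38.p6), from 250 bases before to 50 after the start, 5′ to 3′ on the gene's strand, with CpG dinucleotides in capitals. The RefSeq start of Aqp5 lies downstream of the deposited gene start, so most of its window falls within the gene bounds given below.
Aqp5 promoter, chr15:99590778-99591077, plus strand: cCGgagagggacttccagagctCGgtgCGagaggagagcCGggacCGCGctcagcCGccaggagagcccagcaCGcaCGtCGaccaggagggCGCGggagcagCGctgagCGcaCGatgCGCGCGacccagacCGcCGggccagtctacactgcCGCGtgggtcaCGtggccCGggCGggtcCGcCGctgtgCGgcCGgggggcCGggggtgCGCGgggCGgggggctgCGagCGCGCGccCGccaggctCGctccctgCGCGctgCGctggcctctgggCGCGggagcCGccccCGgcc
Gas6 promoter, chr8:13494486-13494785, minus strand: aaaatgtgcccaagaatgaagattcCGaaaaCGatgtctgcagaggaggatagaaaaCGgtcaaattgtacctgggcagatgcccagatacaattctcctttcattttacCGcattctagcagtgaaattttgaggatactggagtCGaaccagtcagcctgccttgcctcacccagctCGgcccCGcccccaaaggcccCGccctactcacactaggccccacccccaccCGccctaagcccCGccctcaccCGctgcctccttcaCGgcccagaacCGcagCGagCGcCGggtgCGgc
Stat6 promoter, chr10:127642736-127643035, plus strand: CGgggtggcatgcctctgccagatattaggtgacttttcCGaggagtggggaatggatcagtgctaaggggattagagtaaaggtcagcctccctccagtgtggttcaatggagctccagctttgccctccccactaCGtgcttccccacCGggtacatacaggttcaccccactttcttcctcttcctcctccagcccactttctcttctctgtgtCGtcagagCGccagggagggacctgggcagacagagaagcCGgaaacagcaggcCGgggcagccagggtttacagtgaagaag
The Aqp5 promoter holds 46 CpG, that of Gas6 17 and that of Stat6 8. All 10 genes matched a RefSeq promoter, and 6 of them (Megf6, Gas6, Rasl11a, Ephb6, Aqp5 and Csf2ra) were CpG-rich, meaning a GC content of at least 50% and an observed-to-expected CpG ratio of at least 0.6. Among promoters of tested genes 69.0% met that definition. The GC box GGGCGG, searched on both strands, occurred in 7 of the 10 promoters and in 64.5% of promoters of tested genes. The letters GAANNTTC, part of the heat shock element, were found in the Gas6 promoter alone of the 10, and in 5.45% of promoters of tested genes. TATAAA was found in 0 of the 10 and in 6.81% of promoters of tested genes.

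Levels are in FPKM, fragments scaled to transcript length and library size, from 15591924 to 26954112 fragments per library. Stub1, which checks the genotype labels, read 64.1, 63.4 and 57.5 FPKM in untreated WT libraries and 1.17, 1.02 and 0.722 FPKM in untreated CHIP-KO libraries. Fibroblast markers summed to 1617 to 4099.7 FPKM per library. Thy1 and Dcn had means under 0.1 FPKM in both WT groups, and Lum in all 4 groups. Thy1 had means of 8.28 and 8.73 FPKM in CHIP-KO. Untreated WT and CHIP-KO means were 35.6 and 517 FPKM for Col1a2, and 1.00 and 19.1 FPKM for Pdgfra. Vim, at 599 and 492 FPKM, was the only marker of the list lower in untreated CHIP-KO. The part of such marker differences in the results was not tested. The macrophage list summed to 2.001 to 3.41 FPKM in untreated and 13.6 to 15.9 FPKM in heated WT, and to 3.97 to 4.63 and 8.64 to 10.8 FPKM in CHIP-KO. Cd68 was the 1 of its 8 genes with a mean of at least 1 FPKM, Adgre1 was at 0 throughout, and Ptprc reached 0.0104 FPKM at most. Epithelial, endothelial, melanocyte, Schwann and muscle lists each summed to at most 2.43 FPKM, while the mesothelial list was nearly all Msln. The mean of Msln was 30.1 FPKM in untreated and 5.56 FPKM in heated WT, and 30.1 and 35.1 FPKM in CHIP-KO. Both WT replicates 1 stood apart, with limma library weights of 0.192 and 0.165 against 0.439 to 5.04 for the others, from an estimate that stopped short of full convergence.

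Near absence describes only some of the 10 genes. In untreated cells the CHIP-KO mean was under 10% of the WT mean for 4 genes, Gas6, Lmcd1, Megf6 and Csf2ra, and 10.01% to 31.9% for the other 6. After heat it was under 10% for 7 genes, while Aqp5, Ripk3 and Stat6 stood at 10.7%, 20.2% and 28.7%. The CHIP-KO mean lay under 1 FPKM for 4 genes in either treatment, Gas6, Lmcd1, Csf2ra and Ephb6. Ranked by this share in untreated cells, the genes ran Gas6 (1.05%), Lmcd1 (2.33%), Megf6 (3.39%), Csf2ra (6.27%), Aqp5 (10.01%), Stat6 (16%), Ephb6 (17.2%), Ripk3 (19.5%), Rasl11a (22.9%) and Gpnmb (31.9%). Neighbours in that order whose libraries overlapped were Gas6 with Lmcd1, Stat6 with Ephb6, Ephb6 with Ripk3 and Ripk3 with Rasl11a. All 10 genes passed the filter on low values (at least 1 FPKM in at least 3 libraries), which WT libraries alone could meet. After heat the order began Gas6, Lmcd1, Csf2ra, Megf6, Ephb6, Gpnmb and Rasl11a, and libraries overlapped between Lmcd1 and Csf2ra, Csf2ra and Megf6, and Rasl11a and Aqp5. In bulk RNA, fewer expressing cells and less RNA per cell cannot be told apart.

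**Figure D1:**
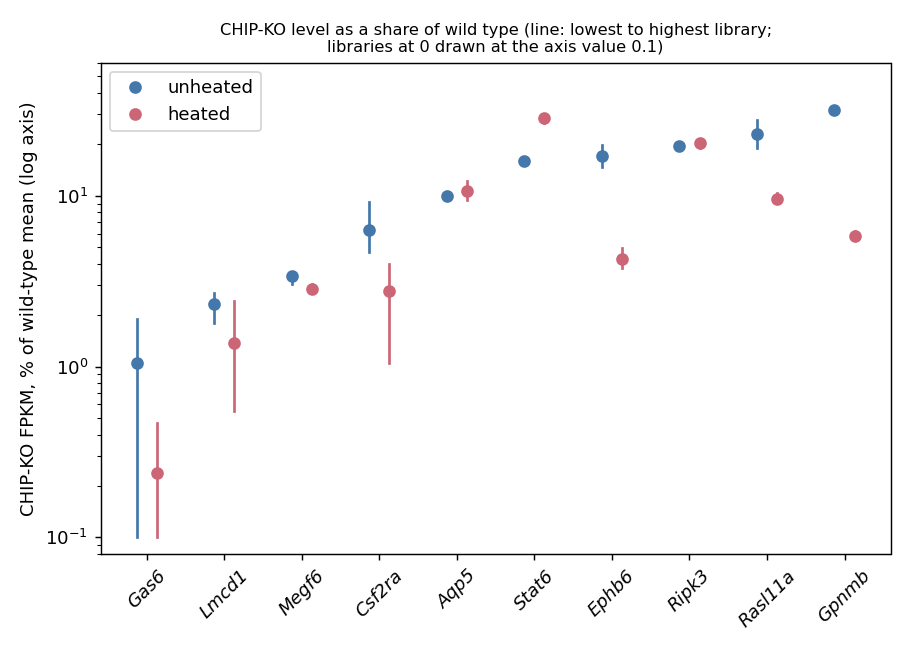
CHIP-KO FPKM of each gene as a percentage of the wild-type mean (log axis), unheated and heated; points are means of 3 libraries, lines run from the lowest to the highest CHIP-KO library, and libraries at 0 are drawn at 0.1. Gas6 sits lowest in both treatments, and Stat6 moves from 16% to 28.7% with heat.

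Gas6, the secreted ligand (ENSMUSG00000031451, chromosome 8, positions 13465374 to 13494490, minus strand, GRCm38), read 3.09, 3.33 and 4.21 FPKM in the untreated WT libraries. Heated WT libraries read 15.6, 16.1 and 17.8 FPKM. In CHIP-KO the untreated libraries gave 0, 0.0436 and 0.0677 FPKM, and the heated ones 0.0768, 0.0408 and 0 FPKM. Every WT library thus lay far above every CHIP-KO library, and heated WT libraries were apart from untreated ones. The CHIP-KO values rest on 0, 3 and 4 fragments untreated and 5, 2 and 0 fragments heated, and a library at 0 allows up to 3 fragments, 0.0471 FPKM in the untreated and 0.0579 FPKM in the heated one. With 7 fragments in each CHIP-KO group, exact 95% Poisson limits put the untreated share at 0.421% to 2.16% of WT, for counting error only.

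Megf6 (ENSMUSG00000057751, chromosome 4, positions 154170730 to 154275713, plus strand) was well expressed in WT cells, with 32.4, 29.3 and 30.8 FPKM untreated. After heat these cells gave 31.9, 39.96 and 39.4 FPKM. CHIP-KO libraries held 0.934, 1.10 and 1.11 FPKM before heat and 1.13, 1.04 and 1.00 FPKM after it, on 157 to 233 fragments each. Its CHIP-KO level was thus low but well counted, and its fall ranked 3 of 13023 tested genes in both treatments, with log2 differences of -3.96 untreated and -4.20 heated.

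Ephb6 and Csf2ra, the receptor genes, were modest in untreated WT cells and higher after heat. For Ephb6 (ENSMUSG00000029869, chromosome 6, positions 41605482 to 41620509, plus strand) the untreated WT libraries gave 2.12, 2.48 and 3.30 FPKM and the heated ones 12.3, 13.01 and 14.05 FPKM. Its CHIP-KO libraries gave 0.445, 0.520 and 0.388 FPKM without heat and 0.529, 0.496 and 0.652 FPKM with it. The 2 treatments overlapped for Ephb6 in CHIP-KO and were far apart in WT. For Csf2ra (ENSMUSG00000059326, chromosome 19, positions 61224402 to 61228418, minus strand) untreated WT cells showed 3.98, 4.59 and 5.55 FPKM, against 7.76, 10.2 and 12.5 FPKM once heated. CHIP-KO cells showed 0.433, 0.220 and 0.233 FPKM, and 0.402, 0.338 and 0.106 FPKM once heated, on 4 to 20 fragments per library. Heated WT libraries of Csf2ra spread widely, yet the lowest of them exceeded the highest untreated one.

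Gpnmb (ENSMUSG00000029816, chromosome 6, positions 49036546 to 49070929, plus strand), the membrane glycoprotein gene, kept the highest untreated CHIP-KO share of the 10. WT libraries ranged over 4.61, 4.49 and 5.02 FPKM untreated, then 23.4, 25.4 and 26.3 FPKM heated. CHIP-KO libraries were close together, at 1.49, 1.55 and 1.46 FPKM before and 1.38, 1.55 and 1.44 FPKM after heat. The share of WT was 31.9% without and 5.82% with heat, while the CHIP-KO means were 1.498 and 1.46 FPKM. Aqp5 (ENSMUSG00000044217, chromosome 15, positions 99590782 to 99594829, plus strand), the water channel gene, varied little in WT, with 12.5, 12.2 and 12.01 FPKM untreated. The heated WT libraries had 12.04, 10.4 and 10.98 FPKM. CHIP-KO libraries had 1.29, 1.17 and 1.21 FPKM, then 1.05, 1.36 and 1.16 FPKM after heat. Untreated and heated Aqp5 values overlapped in both genotypes.

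Ripk3 (ENSMUSG00000022221, chromosome 14, positions 55784995 to 55788865, minus strand), the necroptosis kinase gene, was the most expressed of the 10 in untreated WT cells, with 45.5, 49.9 and 47.3 FPKM. The heated WT values were 41.2, 52.5 and 50.3 FPKM. CHIP-KO values were 8.97, 9.30 and 9.61 FPKM untreated, and 9.12, 9.69 and 10.3 FPKM followed heat. These rest on 427 to 575 fragments per library, so Ripk3 transcripts were plainly present in CHIP-KO cells. Rasl11a (ENSMUSG00000029641, chromosome 5, positions 146845071 to 146847726, plus strand) had 9.25, 10.04 and 11.4 FPKM in WT cells without heat. With heat it had 58.2, 62.4 and 61.4 FPKM. In CHIP-KO cells it had 2.26, 1.94 and 2.83 FPKM without heat, and 6.32, 5.59 and 5.53 FPKM with heat. Heated Rasl11a libraries lay above untreated ones in both genotypes.

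The nuclear factors differed in how much transcript CHIP-KO cells kept. Stat6 (ENSMUSG00000002147, chromosome 10, positions 127642986 to 127660957, plus strand) gave 21.7, 25.1 and 25.9 FPKM in WT controls, compared with 32.7, 29.8 and 29.2 FPKM in heated WT cells. CHIP-KO controls gave 4.04, 3.83 and 3.76 FPKM, compared with 8.97, 9.17 and 8.21 FPKM in heated CHIP-KO cells. Every heated Stat6 library exceeded every untreated one of its genotype. The gene overlaps Nab2 on the opposite strand, at 51.03 ± 2.09 against 26.5 ± 1.97 FPKM in untreated CHIP-KO and WT (SD, n = 3). After heat Nab2 stood at 77.7 ± 13.03 against 62.2 ± 11.8 FPKM in CHIP-KO and WT. Whether counting used strand is not given in the sources used here, so reads of Stat6 and Nab2 in the overlap cannot be told apart. Lmcd1 (ENSMUSG00000057604, chromosome 6, positions 112273758 to 112330425, plus strand) gave 5.10, 6.53 and 6.34 FPKM in WT controls, and heated WT libraries read 10.8, 10.3 and 9.99 FPKM. CHIP-KO controls gave 0.162, 0.107 and 0.149 FPKM, and their heated counterparts 0.249, 0.120 and 0.0569 FPKM, on 2 to 11 fragments per library. Lmcd1 was therefore near the counting limit in every CHIP-KO library.

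**Figure D2:**
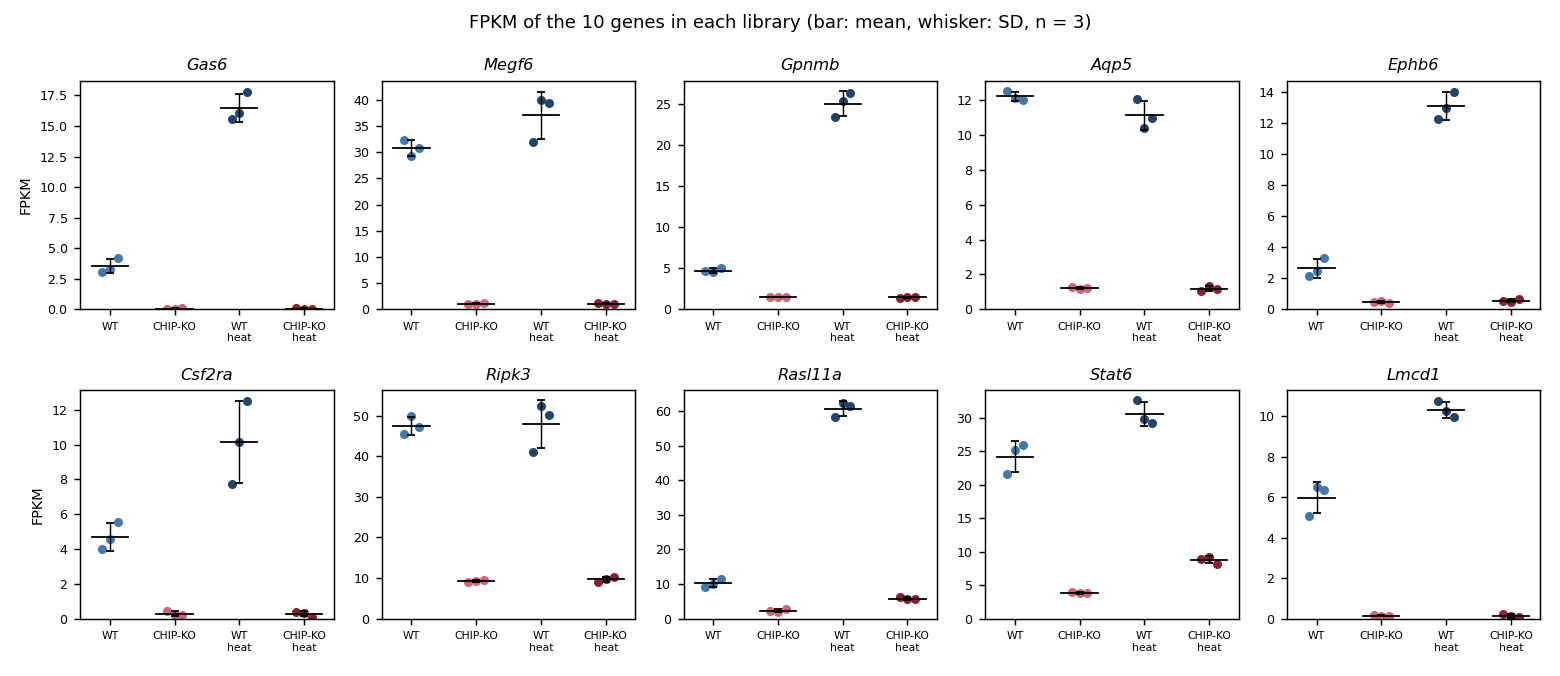
FPKM of each of the 10 genes (linear axes from 0) in every library of the 4 groups; points are libraries, horizontal bars means and whiskers SD over 3 libraries. Wild-type points lie above CHIP-KO points in each panel and treatment, from Gas6 near 0 in CHIP-KO to Ripk3 at 9.29 FPKM in untreated CHIP-KO.

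Heat was compared with no heat within each genotype. In both genotypes this contrast shares libraries with the choice of genes. A gene high in heated WT, or low in heated CHIP-KO, is more likely to show a large heated fall. So nothing is read from the number that rose or from their median. The p-values of single genes are a description and not independent support. Changes are in log2(FPKM + 1), a scale that compresses low genes, tested with limma and adjusted by Benjamini-Hochberg over all 13023 tested genes. In WT cells 8 of the 10 rose, 0 fell and 2 did not pass, where 28.1% of all tested genes rose and 30.5% fell. Their median log2 change was 0.83, against -0.02 over all tested genes. Rasl11a rose by 2.46 on the log2 scale (SE 0.0982, limma adjusted p = 1.62e-08) and Gpnmb by 2.19 (SE 0.0602, limma adjusted p = 1.26e-09). Ephb6 and Gas6 rose by 1.97 and 1.95, Csf2ra by 0.95 and Lmcd1 by 0.70, with limma adjusted p from 4.70e-08 to 0.000403. Stat6 and Megf6 rose least, by 0.33 and 0.25, with limma adjusted p of 0.00252 and 0.0208. The Megf6 libraries overlapped between treatments, and its rise missed the threshold without WT_none replicate 2 (adjusted p = 0.0743), WT_HS replicate 2 (0.0803) or WT_HS replicate 3 (0.0809), and with the 2 WT groups fitted alone (0.0762), where 7 of the 10 rose. When libraries were given equal FPKM sums, which shifted the median of all genes by -0.19, neither Megf6 (limma adjusted p = 0.804) nor Stat6 (limma adjusted p = 0.341) passed, and Aqp5 and Ripk3 were called lower. At an unadjusted p under 0.05 the number that fell in WT was 0, and 0 fell by voom on recovered fragments. In WT the mesothelial marker Msln had means of 30.1 unheated and 5.56 FPKM heated, and the macrophage marker Cd68 had means of 2.41 unheated and 13.4 FPKM heated. The part of either in these heat changes was not tested.

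In CHIP-KO cells 2 of the 10 genes rose with heat, 0 fell and 8 did not pass, where 8.65% of all tested genes rose and 11.4% fell. The limit from the choice of genes holds here too. At an unadjusted p under 0.05 the number that fell was 0, and by voom 0. With equal FPKM sums Gpnmb, Aqp5 and Ripk3 were called lower. That scaling shifted the median heat change of all tested genes in CHIP-KO by -0.286, and 8158 of them were then called lower. Rasl11a rose by 1.03 on the log2 scale (SE 0.0982, limma adjusted p = 8.52e-05). Stat6 rose by 1.00 (SE 0.0725, limma adjusted p = 1.10e-05), from 3.88 to 8.78 FPKM on average. Nab2, which overlaps Stat6, rose with heat in both genotypes (limma adjusted p = 2.35e-05 in WT and 0.0113 in CHIP-KO). The part of Nab2 reads in the Stat6 changes was not tested. Gpnmb changed by -0.03 (SE 0.0602, limma adjusted p = 0.813) and Ephb6 by 0.10 (SE 0.108, limma adjusted p = 0.551). Lmcd1 had 18 fragments over the untreated and 17 over the heated CHIP-KO libraries, and Csf2ra 41 and 35. With both WT replicates 1 left out, again 8 genes rose in WT and 2 in CHIP-KO. The difference between the genotypes' heat changes is built from the contrasts that chose the genes, so it was not tested for them.

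**Figure D3:**
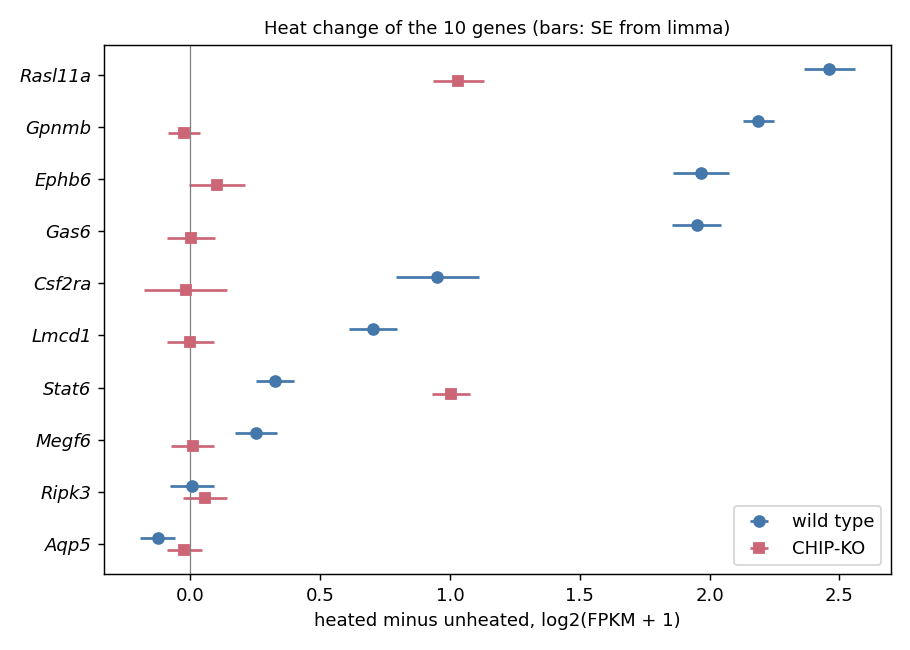
Heat change of each gene (heated minus unheated, log2(FPKM + 1)) in wild type (circles) and CHIP-KO (squares), with SE bars from limma. Rasl11a and Stat6 stand to the right of 0 in both genotypes, and the other 8 genes lie near 0 in CHIP-KO.

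Pathway partners and relatives of the 10 genes were not used to choose them, and their genotype differences were tested. The lists were drawn up with earlier results of these data known. The genes named below are mostly those with the largest differences in each list. Counts and p-values therefore describe these lists and are not independent support. Of 98 listed genes 65 passed the filter. In untreated cells 39 were higher and 7 lower in CHIP-KO, where 23.9% and 24.5% of all tested genes were. After heat 25 were higher and 15 lower, where 23.3% and 19.1% of all tested genes were. The median log2 difference of the listed genes was 0.40 without and 0.08 with heat, against -0.01 and 0.01 over all tested genes.

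Receptors for GAS6 were present in CHIP-KO cells. Of 4 genes of this axis besides Gas6, 3 were higher and 0 lower in untreated CHIP-KO, and 2 and 2 after heat. The receptor gene Axl stood at 118 ± 2.89 against 89.2 ± 6.53 FPKM in untreated CHIP-KO and WT (SD, n = 3), a log2 difference of 0.40 (limma adjusted p = 0.000204). Tyro3 was also higher, at 15.9 ± 0.528 against 10.96 ± 1.498 FPKM, while Mertk did not pass in untreated cells (limma adjusted p = 0.115) and was lower in CHIP-KO after heat (limma adjusted p = 0.00152). Pros1, which encodes protein S, another ligand of these receptors, was higher in untreated CHIP-KO at 16.1 ± 0.753 against 11.03 ± 1.40 FPKM. After heat Pros1 was lower in CHIP-KO, at 14.5 ± 0.582 against 31.2 ± 0.943 FPKM (limma adjusted p = 9.63e-07).

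Among 13 tested necroptosis genes 7 were higher and 2 lower in untreated CHIP-KO, and 4 and 2 after heat. Zbp1, a nucleic acid sensor that can activate RIPK3, stood at 10.7 ± 0.765 against 0.139 ± 0.112 FPKM, a log2 difference of 3.37 (limma adjusted p = 9.73e-10). Tlr3, a receptor for double-stranded RNA, stood at 8.89 ± 0.386 against 1.30 ± 0.0837 FPKM, and Casp8, the protease that restrains necroptosis, at 17.7 ± 0.216 against 12.3 ± 0.924 FPKM. Cyld, a deubiquitinase gene, was lower in untreated CHIP-KO at 6.99 ± 0.438 against 11.4 ± 1.72 FPKM and did not pass after heat (limma adjusted p = 0.114).

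In the interleukin 4 and STAT6 list 10 of 17 genes were tested, of which 8 were higher and 0 lower in untreated CHIP-KO, the direction opposite to Stat6. Stat2 stood at 50.2 ± 1.75 against 13.6 ± 2.26 FPKM (limma adjusted p = 7.60e-08). The receptor gene Il13ra1 stood at 27.8 ± 1.28 against 13.2 ± 0.873 FPKM, and Socs1, a feedback inhibitor of cytokine signalling, at 6.79 ± 0.173 against 3.28 ± 0.380 FPKM. After heat 4 of the list were higher and 1 lower, and Il13ra1 and Socs1 did not pass (limma adjusted p = 0.0664 and 0.250). Of 8 genes around the GM-CSF receptor 4 were tested. Csf2rb, which encodes the beta chain that pairs with the Csf2ra product, and its relative Csf2rb2, which serves interleukin 3, were under the filter with group means of at most 0.316 and 0.468 FPKM, and the cytokine gene Csf2 was at 0 in all libraries. In untreated CHIP-KO 2 of the 4 were higher and 0 lower, and after heat 0 were higher and 2 lower. The kinase gene Jak2 was higher in untreated CHIP-KO at 13.9 ± 0.506 against 8.55 ± 0.0999 FPKM and did not pass after heat (limma adjusted p = 0.916). The receptor gene Il3ra was higher untreated at 3.75 ± 0.406 against 2.35 ± 0.214 FPKM and lower after heat at 3.82 ± 0.278 against 5.47 ± 0.308 FPKM. Stat5a did not pass untreated and was lower after heat at 9.59 ± 0.237 against 12.7 ± 0.891 FPKM (limma adjusted p = 0.000502), and Stat5b stood at 15.5 ± 0.909 against 15.2 ± 0.272 FPKM untreated (limma adjusted p = 0.803).

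Close relatives gave both directions. Aqp1, the 1 other aquaporin of 11 that passed the filter, stood at 30.7 ± 1.68 against 132 ± 5.38 FPKM in untreated CHIP-KO and WT, a log2 difference of -2.07 (limma adjusted p = 1.77e-09). After heat it stood at 35.6 ± 1.77 against 177 ± 16.7 FPKM (limma adjusted p = 1.80e-09), so Aqp1 was lower in CHIP-KO in both treatments, as Aqp5 was. Rasl11b, a close relative of Rasl11a, was higher in CHIP-KO at 13.4 ± 0.867 against 0.965 ± 0.287 FPKM untreated (log2 difference 2.88, limma adjusted p = 1.50e-08). In WT it rose with heat to 11.02 ± 2.11 FPKM. Among 14 tested Eph and ephrin genes 6 were higher and 2 lower in untreated CHIP-KO, and 3 and 3 after heat. Ephb2, a receptor of the same class as Ephb6, was lower at 3.58 ± 0.101 against 7.53 ± 0.499 FPKM untreated and at 3.28 ± 0.0421 against 6.56 ± 0.550 FPKM heated, while Epha3 was higher at 3.06 ± 0.272 against 0.155 ± 0.0432 FPKM untreated.

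Pear1 and Megf10, relatives of Megf6 with EGF-like repeats, were both higher in untreated CHIP-KO, at 14.2 ± 0.691 against 5.92 ± 0.568 FPKM and 1.12 ± 0.166 against 0.0749 ± 0.0223 FPKM. Of 7 tested genes in the list of LIM proteins and GATA6, 4 were higher and 2 lower in untreated CHIP-KO, and 3 and 3 after heat. Untreated, Fhl1 stood at 40.5 ± 0.596 against 20.7 ± 1.35 FPKM, Fhl2 at 18.9 ± 0.863 against 39.5 ± 3.21 FPKM, and Gata6 at 2.02 ± 0.0646 against 0.606 ± 0.0951 FPKM (limma adjusted p = 6.50e-06). Of 6 tested genes around Gpnmb 5 were higher and 0 lower in untreated CHIP-KO, and 5 and 0 after heat. Tfeb and Mitf, transcription factors of lysosome and melanosome genes, stood at 5.68 ± 0.452 against 3.86 ± 0.354 FPKM and 1.28 ± 0.208 against 0.442 ± 0.0748 FPKM untreated. Cd44, a surface receptor described as a partner of GPNMB, stood at 37.8 ± 1.85 against 30.4 ± 2.72 FPKM.

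**Figure D4:**
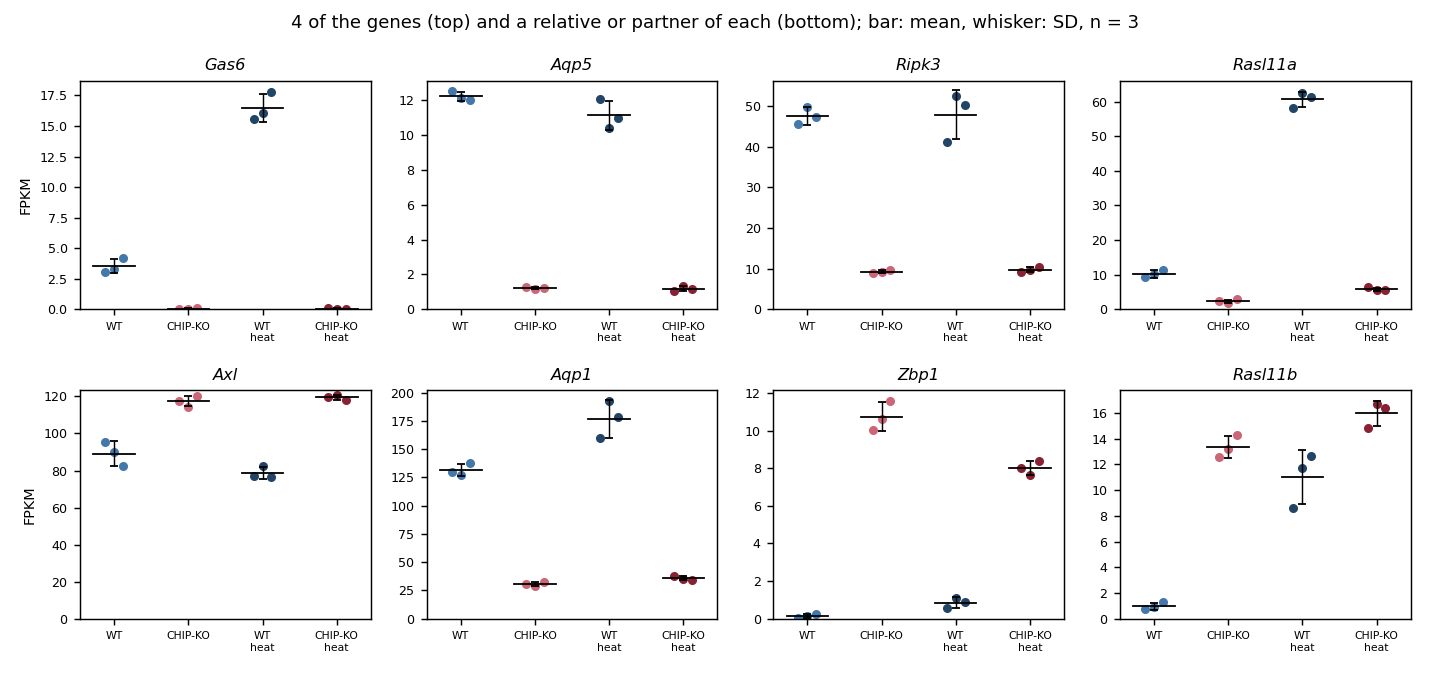
FPKM (linear axes from 0) of Gas6, Aqp5, Ripk3 and Rasl11a in the top row and of Axl, Aqp1, Zbp1 and Rasl11b in the bottom row, in every library; bars are means and whiskers SD over 3 libraries. Aqp1 is lower in CHIP-KO, as Aqp5 is, whereas Axl, Zbp1 and Rasl11b are higher in CHIP-KO.

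The tested genes nearest to the 10 on their chromosomes were compared as well. These genes, 1 on each side, numbered 19, since Csf2ra had none on its higher-coordinate side. Not all were close: the gaps ran from 2865 bases (Malsu1 to Gpnmb) to 3414401 bases (Edem1 to Lmcd1). In untreated cells 8 of them were lower, 3 higher and 8 neither in CHIP-KO. After heat 3 were lower, 4 higher and 12 neither. Within 200 kb of the 10 genes lay 64 tested genes, 20 lower and 12 higher in untreated CHIP-KO, and 17 lower and 7 higher after heat. Ephb6 and Lmcd1 had 0 tested genes in that window, so the 64 do not cover them. Of all tested genes 24.5% were lower and 23.9% higher untreated, and 19.1% and 23.3% after heat. A log2 difference of -2 or lower was found for 0 of these 64 in either treatment, where 0.115% of all tested genes reached it untreated and 0.284% heated. Falls that large were so rare over all genes that 0 of 64 says little.

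Single nearest neighbours gave both directions. Wrap73, 3309 bases from Megf6, was lower in untreated CHIP-KO at 4.21 ± 0.231 against 5.34 ± 0.330 FPKM (limma adjusted p = 0.0105) and did not pass after heat (limma adjusted p = 0.199). Malsu1, 2865 bases from Gpnmb, stood at 4.88 ± 0.255 against 4.94 ± 1.496 FPKM untreated (limma adjusted p = 0.949). Tmem176a, on the other side of Gpnmb, was lower in CHIP-KO in both treatments, at 9.45 ± 0.519 against 15.8 ± 0.326 FPKM untreated and 10.1 ± 0.237 against 18.5 ± 1.03 FPKM heated (limma adjusted p = 1.52e-06 and 5.19e-07). Tfdp1 and Rasa3 on either side of Gas6 did not pass in untreated cells (limma adjusted p = 0.825 and 0.642). After heat Rasa3 was lower in CHIP-KO (log2 difference -0.60, limma adjusted p = 1.24e-05) and Tfdp1 higher (0.28, limma adjusted p = 0.000510). Nfatc4, a transcription factor gene 34278 bases from Ripk3, was higher in untreated CHIP-KO at 9.06 ± 0.475 against 1.49 ± 0.0769 FPKM (limma adjusted p = 2.55e-08), and its difference after heat was near the threshold (limma adjusted p = 0.0456). Racgap1, a cytokinesis gene 25666 bases from Aqp5, was lower untreated at 35.8 ± 0.562 against 58.2 ± 0.774 FPKM and did not pass after heat (limma adjusted p = 0.500). Rpl21, 8038 bases from Rasl11a, was lower untreated at 25.7 ± 9.18 against 56.3 ± 4.53 FPKM and did not pass after heat (limma adjusted p = 0.929). Its level is uncertain, since ribosomal protein genes have near-identical copies.

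Trbv6, a T cell receptor segment 538327 bases from Ephb6, had 0 fragments in all 6 CHIP-KO libraries. In WT it had 13 fragments over the untreated and 39 over the heated libraries. It was lower in CHIP-KO in both treatments (limma adjusted p = 0.000598 and 2.46e-06), on those few fragments. Casp2, 644475 bases from Ephb6 on the other side, stood at 7.25 ± 0.276 against 5.10 ± 0.128 FPKM untreated (limma adjusted p = 0.000183).

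**Figure D5:**
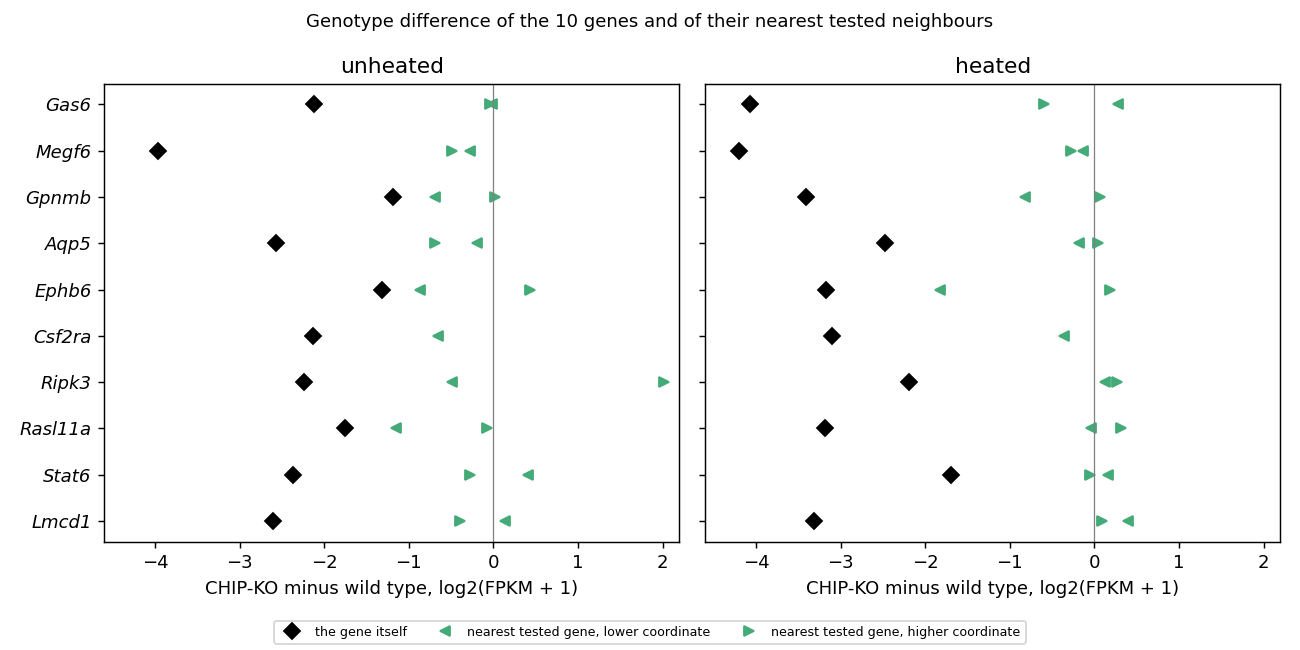
Genotype difference (CHIP-KO minus wild type, log2(FPKM + 1)) of each of the 10 genes (diamonds) and of the nearest tested gene on each side (triangles), unheated on the left and heated on the right. The neighbours lie between -1.15 and 2.02 unheated and between -1.82 and 0.39 heated, each to the right of its diamond. The 10 genes were chosen for large falls, so that position is no result about the neighbours.

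For each gene the most similar pattern over the 12 libraries was sought among 11017 other tested protein-coding genes, by Pearson's r of log2(FPKM + 1). This is a description, since all such patterns share the step between genotypes. Aqp5 was most like Stub1 (r = 0.998). Cadm1, which encodes a cell adhesion molecule, was most like both Megf6 (r = 0.999) and Ripk3 (r = 0.997), and stood at 0.0143 ± 0.00634 against 4.13 ± 0.194 FPKM in untreated CHIP-KO and WT. Stat6 was most like the small heat shock protein gene Hspb8 (r = 0.984), at 11.4 ± 0.650 against 69.0 ± 1.06 FPKM untreated and 28.7 ± 6.93 against 120.2 ± 29.1 FPKM heated. Ephb6 was most like Lox (r = 0.996), which encodes a collagen cross-linking enzyme, and within the 10 it was most like Gpnmb (r = 0.997). Gas6 was nearest to Scube3, Gpnmb to Fuca2, Rasl11a to Hoxa9, Lmcd1 to Kcnab2 and Csf2ra to Decr2, at r of 0.990 to 0.998.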

How the data were processed

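Poly(A) RNA of 12 MEF libraries was sequenced, and titles gave group and replicate. The authors deposited FPKM values. HISAT2 did the alignment, per the submitters' processing notes. Which version, counter, annotation and strand setting were used is not given in the sources used here. Multiplying FPKM by the deposited gene length gave whole steps in each library for 100% of nonzero values (tolerance 0.01), read as fragments. Of 54532 identifiers 54495 were in GENCODE M21, 53585 at identical bounds, so positions are on GRCm38; those of Csf2ra differ and are as deposited. Log2(FPKM + 1) of 13023 genes was fitted with limma 3.58.1 (R 4.3.3): 1 mean per group, all 12 libraries, variance trend, two-sided, Benjamini-Hochberg adjusted p under 0.05. The fit was tested on simulated data. The 10 genes and all lists were chosen with earlier results of these data known. Named are up to 4 tested genes per list with the largest genotype difference, the nearest tested neighbours, and the most similar gene; Nab2, Csf2, Csf2rb and Csf2rb2 were added after their values were seen. Some listed genes enter the counts and are not reported here by name. Alternatives changed the pseudocount, filter, scaling, libraries, weights, block and model.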

Additional observations from a re-analysis of the deposited data

Results flagged for a closer look

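The heat change of several partners and neighbours differed between genotypes by the interaction term of the limma fit (adjusted p under 0.05). Of 52 named partners and neighbours 23 passed, 18 more negative and 5 more positive in CHIP-KO, where 35.2% of all tested genes passed. The named partners were picked for large genotype differences, and this term is built from those differences. The 23 are therefore a description and are not read against that share. Values are the heat change in CHIP-KO minus that in wild type, log2. Relatives of Rasl11a stood at -2.37 (Rasl11b) and -0.94 (Rasl10a), and the GAS6 axis at -1.56 (Pros1) and -0.87 (Mertk). Cytokine signalling genes stood at -1.30 (Stat2), -0.93 (Il3ra), -0.88 (Il13ra1), -0.62 (Jak2) and -0.44 (Stat5a). Necroptosis genes stood at -1.07 (Zbp1) and -0.51 (Tlr3). Eph, ephrin and MEGF genes stood at -1.11 (Epha3), -0.70 (Efna2) and -0.59 (Megf10), and a LIM gene at 0.49 (Fhl2). Chromosomal neighbours stood at -1.75 (Nfatc4), -0.96 (Trbv6), -0.56 (Rasa3), -0.25 (Casp2), 0.29 (Tfdp1), 0.61 (Nop9), 0.73 (Racgap1) and 1.12 (Rpl21). Rasl11b changed by 2.61 with heat in wild type and by 0.24 in CHIP-KO.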

How the results depend on the processing

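Every genotype difference of the 10 genes kept its sign under all alternatives run. Large falls in these same libraries chose the genes, so a kept sign is no check of them. In size, 20 untreated and 19 heated values were flagged as moved, and 207 and 208 as the same. Of the partner and neighbour calls, Megf9, Mitf, Casp2 and Nfatc4 after heat were each lost under at least 1 alternative. Of the counts over all genes changed by heat, 7640 in wild type became 5087 with a mean of at least 5 FPKM required, and 2607 in CHIP-KO became 1578 with that filter, 8725 with an equal sum per library (567 higher, 8158 lower, against 1126 and 1481), 4043 with the 2 groups alone, 6201 with library weights, 4414 without both WT replicates 1 and 3924 with voom on recovered fragments. The filter at a mean of 5 FPKM also changed which genes were tested, so its counts come from a different set of genes. An equal sum also split the wild-type calls into 2388 higher and 6168 lower, against 3664 and 3976. Leaving out 1 library gave 1592 to 3462 in CHIP-KO, the lowest without KO_none replicate 3. Genes differing by genotype after heat went from 5525 to 8590 with library weights, and partners with an interaction from 30 to 48. Of the 10 genes, 5 rose in wild type under the stricter filter, which not all pass. Those that fell in wild type were 2 with an equal sum, 1 with library weights and 0 to 1 with 1 library left out (Aqp5, without WT_HS replicate 1), and 3 fell in CHIP-KO with an equal sum.

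Heat changes near 0 changed sign, all on the log2 scale and in CHIP-KO unless stated. An equal sum shifted the median heat change of all tested genes by -0.286 in CHIP-KO and -0.194 in wild type. It gave -0.1645 for Megf6, -0.008802 for Gas6, -0.01019 for Ephb6, -0.03974 for Lmcd1, -0.2509 for Ripk3 and -0.2271 for Ripk3 in wild type. Quantile normalization gave -0.1199 (Megf6), -0.1625 (Gas6), -0.2104 (Ephb6) and -0.2462 (Lmcd1). Library weights gave -0.002279 (Megf6), 0.005255 (Gpnmb), -0.02124 (Lmcd1), 0.04764 (Aqp5) and 0.007455 (Csf2ra). Voom gave -0.06549 (Megf6), -0.168 (Lmcd1), -0.03356 (Ripk3) and -0.03573 (Ripk3, wild type), and a pseudocount of 0.1 gave -0.05513 (Lmcd1). With 1 library left out the ranges were -0.03103 to 0.03009 (Megf6), -0.02318 to 0.03025 (Gas6), -0.06618 to 0.05425 (Lmcd1), -0.0795 to 0.02091 (Aqp5), -0.08658 to 0.08434 (Csf2ra) and -0.06152 to 0.11 (Ripk3, wild type). The cause was not tested.

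Deviations of heated wild-type and heated CHIP-KO libraries with the same number correlated at 0.335, 0.0207 and 0.231 (replicates 1, 2 and 3), and those of the other compared group pairs at -0.12 to 0.0216. Not every pair was over 0.1, and the labels do not say that a number marks a shared batch, so the samples were not taken as paired. With a replicate block the counts were 7637 and 2606 for heat in wild type and CHIP-KO, 6299 and 5525 for genotype without and after heat, and 33 for partner interactions. Depth limits Gas6, Lmcd1 and Csf2ra in CHIP-KO, at 0 to 20 fragments per library.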
